A study of Mus musculus with 8 samples.

Results

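Messenger RNA of the nuclear pore and of its transport receptors was compared between spleens of mice without Nix and spleens of wild-type mice. A probe set (a group of short probes on the array that reads 1 transcript) was taken where its annotation named a single gene and that gene was a Nup, Kpna or Ipo gene with a number, or Kpnb1, Tnpo1, Tnpo2, Tnpo3, Xpo1, Xpo4, Xpo5, Xpo6, Xpot, Cse1l, Ran, Rcc1, Rangap1 or Ranbp2. This gave 118 of the 45101 probe sets on the array, for 46 of the 18193 genes its annotation names singly. A further 3 probe sets that name one of these genes together with a second gene were left out. Whole spleens of 8-week-old animals were used, with 4 arrays of Nix-null mice (Nix_KO; Nix-/-, the protein product of Bnip3l is absent by design) and 4 arrays of wild-type controls (WT). Each array held RNA of 1 spleen, which was not pooled, and neither genotype was treated. The strain, the way the allele was made and the deleted stretch of the gene are not given in the sources used here. Arrays carry the number in their titles, and values below follow the order 10, 2, 3 and 6 for Nix_KO and 3, 4, 5 and 6 for WT.

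The nuclear pore is the channel through the nuclear envelope. It is built from nucleoporins in a fixed architecture: a scaffold of Y-shaped complexes and an inner ring, a central channel of flexible proteins that form the permeability barrier, filaments on the cytoplasmic side and a basket on the nuclear side. Carriers of the importin beta family move cargo through the channel, importin alpha proteins bind cargo that carries a classical nuclear localisation signal and hand it to importin beta 1, and exportins work in the opposite direction. The small GTPase Ran sets the direction, since its exchange factor sits on chromatin and its activating protein on the cytoplasmic side. In dividing cells several of these proteins have a second task at kinetochores and on the spindle, and the spleen of the mouse, unlike that of an adult human, makes red cells through life.

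Values are log2 of the deposited GCRMA intensity, a background-corrected and normalised brightness. Probe sets dimmer than log2 5 on more than 4 of the 8 arrays were not tested, which kept 91 of the 118 member probe sets for 44 of the 46 genes. Kpna7 and Nup210l, each with 1 probe set below that level on all arrays, were not tested. Each gene is represented by its brightest tested probe set, and every adjusted p below comes from limma, adjusted by Benjamini and Hochberg's method across the 22347 probe sets tested, with a threshold of 0.05. Intensities of different probe sets are not compared, because probes differ in brightness.

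Before the results, 3 arrays stand apart. Genes of the exocrine pancreas, which lies against the spleen, had a mean log2 intensity over 15 tested genes of 12.85 on Nix_KO 3, 11.89 on WT 3 and 9.83 on WT 5. On the other arrays it was between 5.33 and 6.15 for Nix_KO, and 7.43 and 5.90 for WT 4 and WT 6. Each main result is therefore also given without Nix_KO 3, WT 3 and WT 5. Array medians of all probe sets lay between 28.85 and 30.61 on the linear scale. The 3 probe sets of Bnip3l, all shared with its pseudogene Bnip3l-ps, differed by log2 0.43, -0.50 and 0.58 between Nix_KO and WT with limma adjusted p = 0.158, 0.164 and 0.117. They did not check the genotype labels.

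Of the 44 genes tested, 17 were higher in Nix_KO spleens, 2 were lower and 25 did not pass the test. Nup43, a scaffold nucleoporin, was 3.0-fold higher, the importin Tnpo2 2.80-fold, the importin alpha gene Kpna2 2.56-fold and the scaffold nucleoporin Nup85 2.03-fold. The 2 that were lower were the importin Ipo4 and the exportin Xpo6. Among all 11027 genes tested, 13.1% were higher and 21.3% were lower by the same rule. The median log2 difference was 0.31 over the 44 genes and -0.15 over all genes. By probe set the count was 33 higher, 2 lower and 56 not passing of 91, where 12.5% of all probe sets were higher and 17.6% lower. Over the members the median probe set difference was 0.40, against -0.12 over all probe sets. Centring each array on its median moved the median of all probe sets to 1e-04. With that centring 1703 of all genes were higher and 1830 lower, where 1442 and 2347 were without it, and 20 members were higher and 2 lower.

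The 4 Nix_KO arrays all lay above the 4 WT arrays for 22 of the 44 genes, and all below them for 3, while the share among all genes was 15.7% above and 23.9% below. Besides the genes that passed, Ipo11, Kpnb1, Nup188, Nup93 and Ran lay above without overlap and Ipo8 below without overlap. Without Nix_KO 3, WT 3 and WT 5, 0 members passed limma's adjusted test, where 2.64% of all genes were higher and 0.916% lower. At an unadjusted p under 0.05, 17 of the 44 members were higher and 2 lower on those 5 arrays, where 12.7% of all genes were higher and 20.5% lower. The log2 differences of the 19 genes called with 8 arrays were, on these 5 of the same arrays, 0.632 to 1.19 times those with 8 arrays, with a median ratio of 1.

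**Figure D1:**
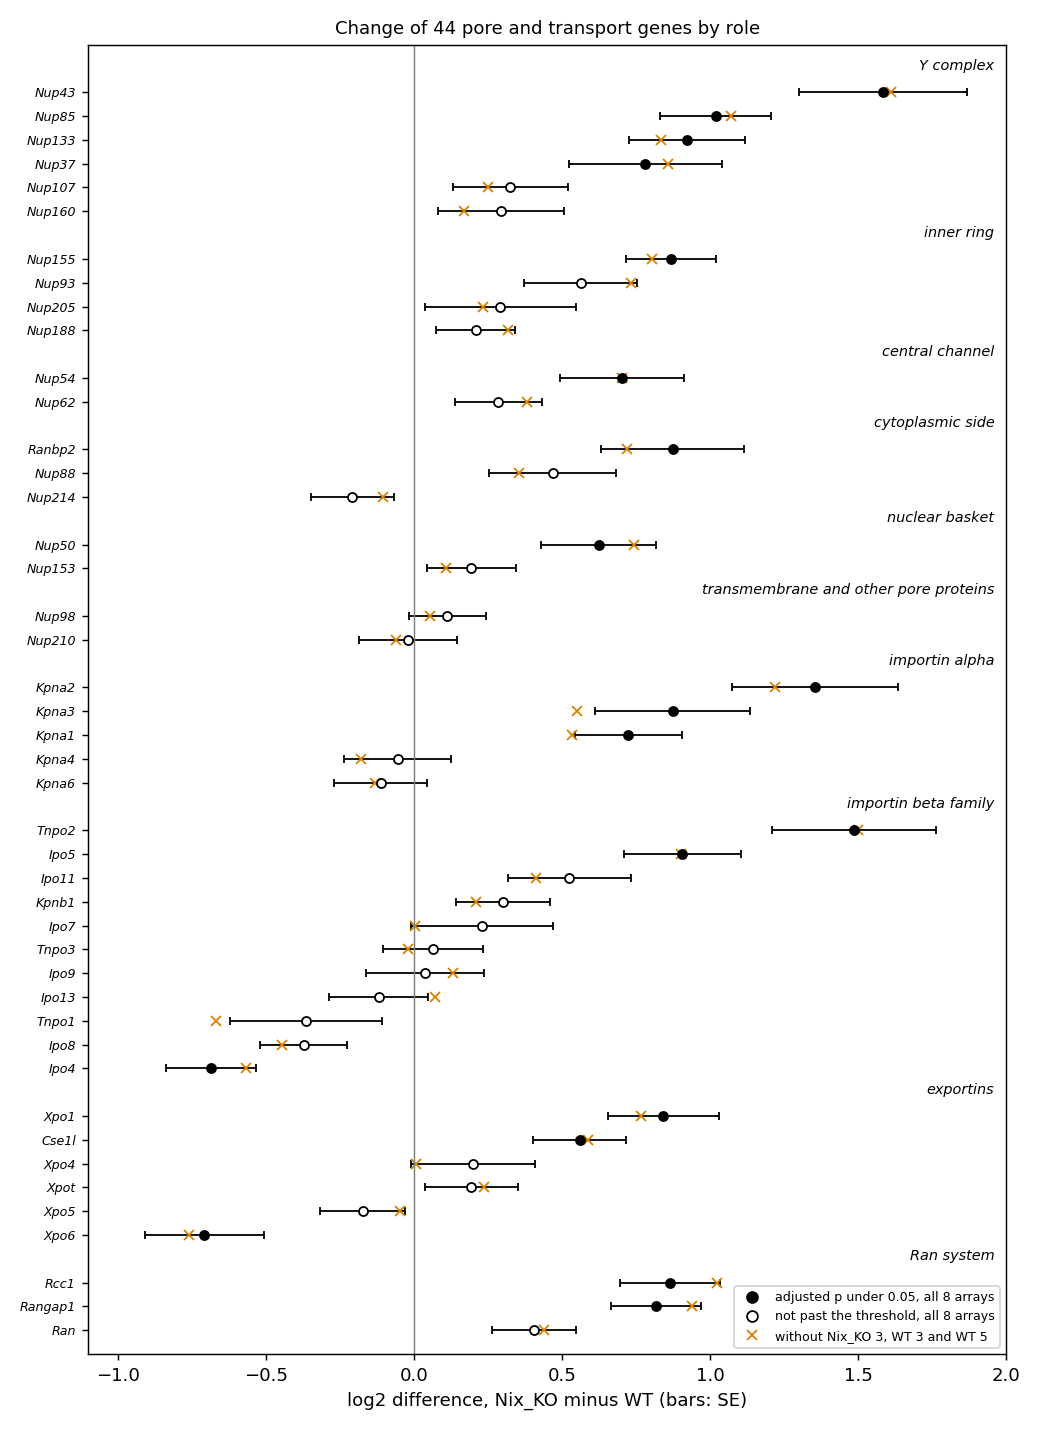
Log2 difference in intensity (horizontal axis, Nix_KO minus WT) for the 44 tested genes, ordered by role, with bars for the standard error. Filled circles passed the adjusted test with all 8 arrays, open circles did not, and crosses give the difference without Nix_KO 3, WT 3 and WT 5. All 10 member genes of the Y complex and inner ring lie right of 0, with Nup43 furthest at 1.58. Xpo6 at -0.71 and Ipo4 at -0.69 lie furthest left.

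Marker genes of other cell states moved with genotype in the same arrays. Of 30 cell division genes tested, 30 were higher in Nix_KO, and their mean log2 intensity was 11.19 to 11.73 in Nix_KO and 9.58 to 10.50 in WT, with summed intensities of 136286.3 to 180098.9 in Nix_KO and 50579.5 to 87905.5 in WT. Of 17 erythroid genes, 17 were higher, with mean log2 intensities of 12.14 to 12.64 in Nix_KO and 9.24 to 11.16 in WT. Sums over all 18 annotated erythroid genes, tested or not, ran from 142982.6 to 186793.9 in Nix_KO and from 31341.2 to 76447.7 in WT. Hba-a1 was the only annotated gene of that list below the floor on all arrays. Of 12 genes of neutrophils and their precursors, 12 were higher, with sums of 43515.4 to 79155 in Nix_KO and 7075.8 to 42576.6 in WT. B cell genes were lower for 12 of 13, with sums of 30145.3 to 48847.8 in Nix_KO and 75170.7 to 84261.9 in WT. T cell genes were lower for 7 of 10, with sums of 4178.5 to 8581.8 in Nix_KO and 8565.3 to 13320.2 in WT. For red pulp macrophages, 1 of 5 genes was lower, with sums of 13676.7 to 19434.2 in Nix_KO and 17812.8 to 21886.9 in WT. The part of these cell types in the changes of pore and transport genes was not tested. In whole spleen, a change in the number of cells of a type and a change in RNA per cell cannot be told apart. None of 15 pancreas genes tested passed limma's adjusted test. Sums over all 21 annotated pancreas genes, tested or not, were 1475.4 to 156577.8 in Nix_KO and 1589.4 to 93930.1 in WT. Reg2 was below the floor on all arrays.

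**Figure D2:**
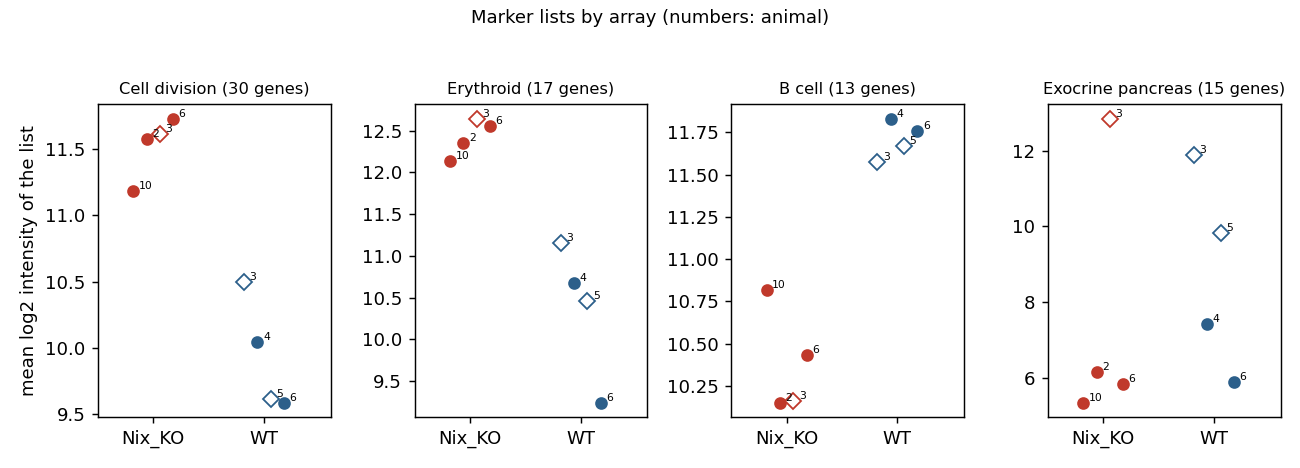
Mean log2 intensity of 4 marker lists on each array, Nix_KO left of WT, with the animal's number beside each point and open diamonds for the 3 arrays with pancreas signal. The Nix_KO arrays lie above the WT arrays for the cell division list (11.19 to 11.73 against 9.58 to 10.50) and the erythroid list, and below them for the B cell list. The pancreas list is high on Nix_KO 3, WT 3 and WT 5 in both genotypes.

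Promoter sequences are shown for 4 genes, so that the words counted over the family can be seen in place: Kpna2 as the importin alpha gene with the largest difference, Nup155 as the gene with the smallest adjusted p, and Ipo4 and Xpo6 as the 2 genes that were lower. They come from the RefSeq annotation of GRCm38.p6, which held 38 of the 46 genes, and cover the 250 bases before the start of the transcript, 5′ to 3′ on the gene's strand. Capitals mark CCAAT or the ETS-type word ACTTCCG, each on either strand. Kpna2 (chr11:106999526-106999775, minus strand) carries an importin alpha, Nup155 (chr15:8109063-8109312, plus strand) an inner ring protein, Ipo4 (chr14:55635685-55635934, minus strand) an importin of histones and Xpo6 (chr7:126200502-126200751, minus strand) the exportin of actin.
Kpna2: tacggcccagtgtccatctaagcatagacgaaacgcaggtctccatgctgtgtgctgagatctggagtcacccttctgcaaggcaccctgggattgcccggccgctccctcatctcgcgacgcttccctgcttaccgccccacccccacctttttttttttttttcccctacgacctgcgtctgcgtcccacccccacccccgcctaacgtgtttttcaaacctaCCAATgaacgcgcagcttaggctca
Nup155: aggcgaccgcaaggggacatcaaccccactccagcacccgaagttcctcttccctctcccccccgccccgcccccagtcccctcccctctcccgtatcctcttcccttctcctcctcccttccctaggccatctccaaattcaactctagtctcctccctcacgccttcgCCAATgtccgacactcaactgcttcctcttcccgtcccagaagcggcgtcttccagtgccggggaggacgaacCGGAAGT
Ipo4: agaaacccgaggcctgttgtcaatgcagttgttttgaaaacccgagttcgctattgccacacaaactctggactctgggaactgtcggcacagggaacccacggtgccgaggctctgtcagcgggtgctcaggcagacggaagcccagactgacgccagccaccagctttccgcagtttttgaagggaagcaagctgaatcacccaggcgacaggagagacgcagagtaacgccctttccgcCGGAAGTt
Xpo6: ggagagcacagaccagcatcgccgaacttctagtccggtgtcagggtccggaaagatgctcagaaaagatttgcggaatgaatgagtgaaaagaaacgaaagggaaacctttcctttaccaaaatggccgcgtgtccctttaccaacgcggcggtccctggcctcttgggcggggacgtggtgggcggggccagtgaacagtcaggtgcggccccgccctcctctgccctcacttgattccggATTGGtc
Kpna2 and Nup155, both higher in Nix_KO, hold CCAAT with its first base 25 and 80 bases before the start. Xpo6, lower in Nix_KO, holds it on the other strand 7 bases before the start. The ETS-type word stood 7 bases before the start in Nup155, which was higher, and 8 bases before it in Ipo4, which was lower.

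Words were searched on both strands, and a gene with several starts counted once if any window held the word. CCAAT was in the windows of 18 of 38 members (47.4%), against 37.5% of the 27025 genes in the table. By call, it was in 58.3% of the 12 higher genes with a window, in 1 of the 2 lower genes and in 39.1% of 23 that did not pass. Cse1l, Kpna1, Kpna3, Nup43 and Nup85, also higher, had no window in the table. The ETS-type word was in 21.1% of members and 5.58% of all genes, and the NRF1-type word GCGCATGC in 13.2% and 2.56%. CACGTG was in 21.1% of members and 6.86% of all genes. Any of the E2F-type words TTTCGCGC, TTTGGCGC and TTTCCCGC was in 2.63% of members and 1.78% of all genes, and 0 of the 12 higher genes held one. The GATA-type word AGATAA was in 7.89% and 11.4%, TATAAA in 13.2% and 14.3%, and the KLF-type word CCACACCC in 2.63% and 3.68%. Higher genes against those not passing gave 16.7% and 21.7% for the ETS-type word, and 8.33% and 17.4% for the NRF1-type word. For CACGTG they gave 25.0% and 21.7%, for the GATA-type word 8.33% and 4.35%, and for TATAAA 16.7% and 13.0%. The E2F-type and KLF-type words each gave 0.0% and 4.35%. These splits by call were not tested. Words overlapped in places, as GCGCATGC does with its own reverse complement. The members' windows had a median GC content of 64.0%, against 52.4% for all genes, and the part of base composition in these shares was not tested. These matches are letters in a window and were not tied to binding of any factor.

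The Y complex is the outer scaffold of the pore, and in mitosis it sits at kinetochores. Of its 6 members tested, 4 were higher in Nix_KO, 0 were lower, and the median log2 difference was 0.85. Beside this and the role counts that follow, 13.1% of all genes were higher and 21.3% lower. Nup43, a propeller-shaped arm subunit, read 7.61, 8.53, 7.45 and 8.19 in Nix_KO, against 6.68, 6.54, 5.77 and 6.46 in WT. No Nix_KO array reached down to a WT array, and WT 5 was the lowest of all. Its log2 difference was 1.58 ± 0.28 (SE), with limma adjusted p = 0.00467, and the second probe set of Nup43 differed by 1.27 (limma adjusted p = 0.00663). Nup85, a short-arm subunit, read 10.72, 11.53, 10.89 and 11.05 in Nix_KO, against 10.15, 10.03, 9.91 and 10.03 in WT. No arrays overlapped, and the log2 difference was 1.02 ± 0.19 (SE, limma adjusted p = 0.00514). Its second probe set gave 1.0. Nup133, the stem subunit at the far end of the Y, read 9.15, 9.48, 9.35 and 9.69 in Nix_KO, against 8.73, 8.54, 8.03 and 8.67 in WT. The groups were apart, with a log2 difference of 0.92 ± 0.20 (SE, limma adjusted p = 0.00849); 2 of its 3 tested probe sets passed. Nup37, which joins Nup160 in the complex, was 0.78 higher (limma adjusted p = 0.0467). Its call was lost without Nix_KO 2, Nix_KO 6 or any 1 WT array, with limma adjusted p up to 0.122 (without WT 5). Nup107, a stem subunit for which the complex is often named, read 8.08, 7.96, 8.18 and 8.78 in Nix_KO, against 7.88, 8.01, 7.76 and 8.03 in WT. These arrays overlapped, and the difference of 0.33 did not pass (limma adjusted p = 0.228). Nup160 differed by 0.29, also without passing (limma adjusted p = 0.32). Ahctf1, Seh1l and Sec13 belong to the complex too but fall outside the naming rule, and are not in these counts. They differed by 0.54, 0.31 and -0.08, and none passed (limma adjusted p = 0.075, 0.162 and 0.827).

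In the inner ring, which anchors the scaffold to the membrane and to the channel, 1 of 4 members was higher, although all 4 differences were positive (median 0.43). Nup155, a membrane-binding ring protein, read 8.81, 9.14, 9.21 and 9.17 in Nix_KO, against 8.30, 8.37, 8.09 and 8.10 in WT. Every Nix_KO array was above every WT array. Its log2 difference of 0.87 ± 0.15 (SE) had the smallest adjusted p among the representing probe sets of the 44 genes (limma, 0.00435), and the other tested probe set differed by 0.99. Nup93, the hub that holds the ring and recruits the channel proteins, read 9.15, 9.74, 9.04 and 9.70 in Nix_KO, against 8.96, 8.84, 8.82 and 8.75 in WT. The arrays did not overlap, but the difference of 0.56 missed the threshold (limma adjusted p = 0.0506); it passed under 8 of 19 alternative settings. The large ring proteins Nup205 and Nup188 differed by 0.29 and 0.21 and did not pass (limma adjusted p = 0.406 and 0.264).

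Several proteins of the channel, the filaments and the basket hold the flexible repeats that carriers bind. Of the 7 member genes of these parts tested, 3 were higher. Nup54, of the channel, read 10.68, 11.32, 10.71 and 10.33 in Nix_KO, against 10.04, 10.23, 10.05 and 9.92 in WT. The groups were apart, with a difference of 0.70 ± 0.21 (SE, limma adjusted p = 0.0317). This is a probe set of a kind marked as open to cross-hybridisation, and the gene's other 2 tested probe sets differed by 0.31 and 0.27 without passing (limma adjusted p = 0.282 and 0.353). Nup62, its partner in the channel, read 11.41, 11.82, 11.51 and 11.60 in Nix_KO, against 11.45, 11.24, 11.29 and 11.22 in WT. WT 3 lay within the Nix_KO range, and the difference of 0.28 did not pass (limma adjusted p = 0.164). This probe set too is of the kind open to cross-hybridisation, the gene's other 3 tested probe sets differed by -0.05, -0.22 and -0.10 without passing, and the mean of all 4 was -0.02. Ranbp2, the giant filament protein that binds Ran and SUMO-modified RanGAP1, read 11.54, 11.19, 11.76 and 11.54 in Nix_KO, against 11.13, 10.67, 10.001 and 10.74 in WT. Its difference was 0.87 ± 0.24 (SE, limma adjusted p = 0.0237), and 2 of its 4 tested probe sets passed. Nup88, which anchors the export platform on the cytoplasmic side, read 9.07, 9.11, 9.30 and 9.60 in Nix_KO, against 9.12, 8.84, 8.27 and 8.97 in WT. WT 3 lay among the Nix_KO arrays, and the difference of 0.47 did not pass (limma adjusted p = 0.123). Nup214, its partner there, differed by -0.21 (limma adjusted p = 0.286). Nup50, a mobile basket protein that helps release cargo from importin alpha, read 9.19, 9.57, 8.98 and 9.80 in Nix_KO, against 8.76, 8.66, 8.74 and 8.89 in WT. The arrays were apart, the difference was 0.62 ± 0.19 (SE, limma adjusted p = 0.0367), and 1 of 3 tested probe sets passed. Nup153, the main basket protein, read 10.90, 10.49, 10.87 and 10.87 in Nix_KO, against 10.63, 10.60, 10.43 and 10.69 in WT. Nix_KO 2 lay within the WT range, and the difference of 0.19 did not pass (limma adjusted p = 0.352).

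The calls of Nup54, Nup50 and Ranbp2 each rested on the full set of arrays. That of Nup54 was lost without Nix_KO 3 or any 1 WT array (limma adjusted p up to 0.0891, without WT 6). The call of Nup50 was lost without Nix_KO 2, Nix_KO 6 or any 1 WT array (limma adjusted p up to 0.0986, without WT 4), and that of Ranbp2 without Nix_KO 3, WT 4 or WT 6 (up to 0.0588, without Nix_KO 3). Averaging the probe sets of a gene also ended the calls of Nup54, at 0.42, and Nup50, at 0.48 (limma adjusted p = 0.0552 and 0.0588).

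Neither of the remaining pore proteins tested among the members passed. Nup98, a mobile nucleoporin with parts in transport and in gene regulation, read 9.64, 9.51, 9.75 and 9.71 in Nix_KO, against 9.45, 9.57, 9.57 and 9.56 in WT. The arrays overlapped and the difference was 0.11 (limma adjusted p = 0.539). Nup210, a membrane-spanning pore protein, differed by -0.02 (limma adjusted p = 0.937), a sign that turned when arrays were centred on their medians (0.10).

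**Figure D3:**
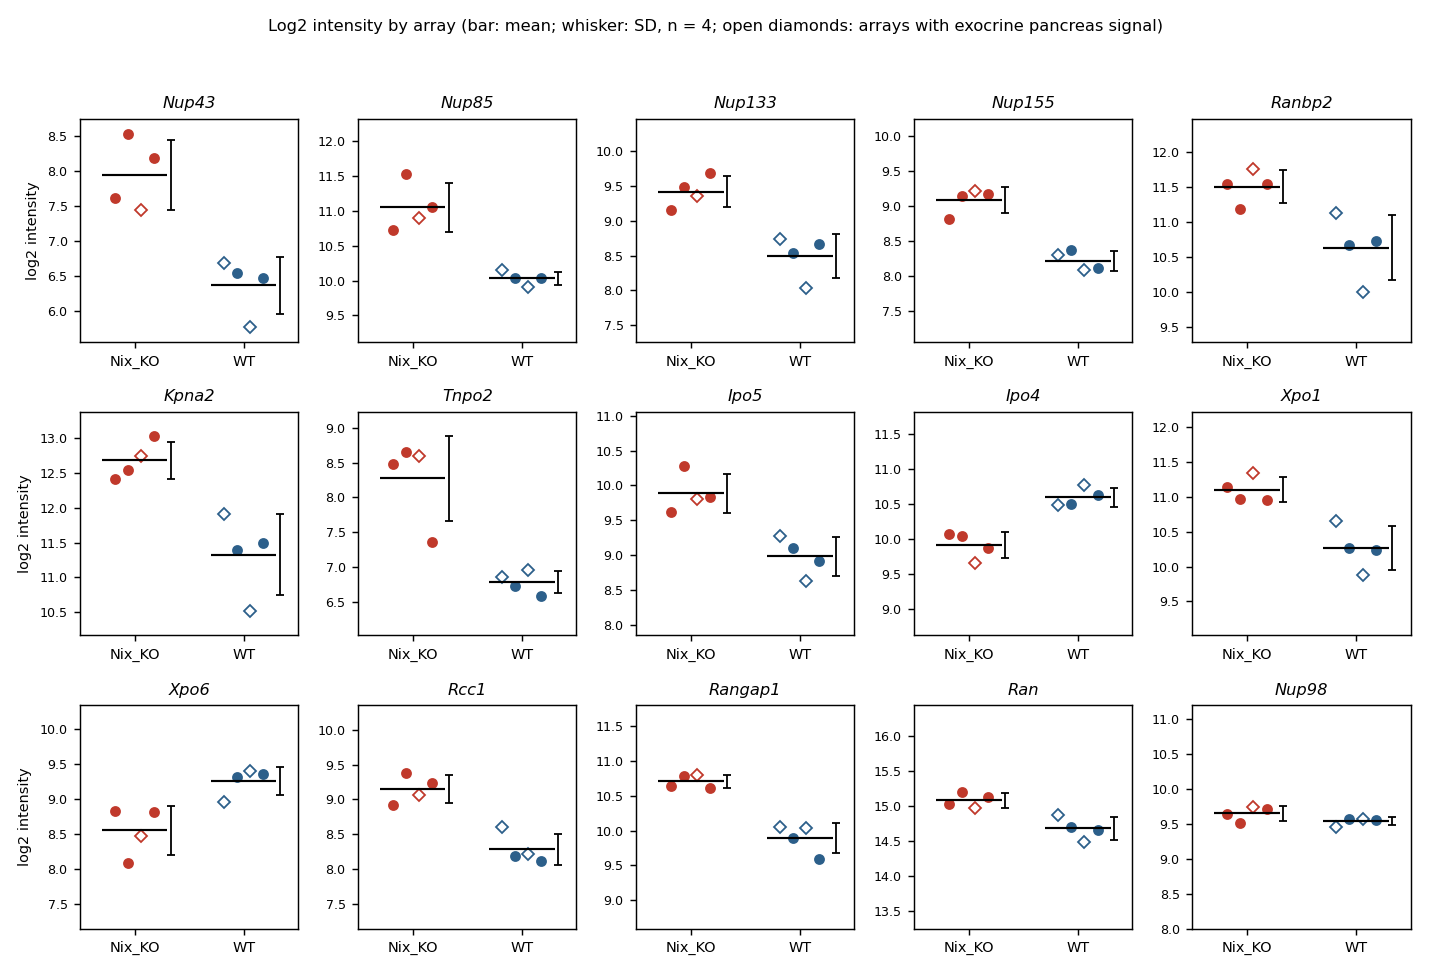
Log2 intensity of 15 genes on each array, Nix_KO left of WT, with a bar for the mean and a whisker for the SD (n = 4), and open diamonds for Nix_KO 3, WT 3 and WT 5. All panels span the same number of log2 units. The Nix_KO points lie above all WT points for Nup43, Kpna2 and Rcc1 and below them for Ipo4 and Xpo6, while those of Nup98 overlap.

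Importin alpha genes, which encode the adaptors for the classical import signal, changed by unequal amounts. Of 5 tested, 3 were higher in Nix_KO and 2 were not called. Kpna2, the paralogue known for its high level in proliferating cells, read 12.41, 12.54, 12.74 and 13.02 in Nix_KO, against 11.90, 11.39, 10.52 and 11.49 in WT. All Nix_KO arrays were above all WT arrays, and WT 5 was the lowest. The difference was 1.35 ± 0.28 (SE, limma adjusted p = 0.00775), and 1.22 without Nix_KO 3, WT 3 and WT 5 (limma adjusted p = 0.0538). Kpna1 read 9.36, 9.44, 9.67 and 9.54 in Nix_KO, against 8.98, 8.91, 8.31 and 8.92 in WT. Its 4 tested probe sets were all higher, the brightest by 0.72 ± 0.18 (SE, limma adjusted p = 0.0164). Kpna3 read 8.64, 8.99, 9.05 and 8.93 in Nix_KO, against 8.31, 8.22, 7.21 and 8.39 in WT. The groups were apart, with WT 5 well below the other WT arrays. The difference was 0.87 ± 0.26 (SE, limma adjusted p = 0.0318) with all arrays, 0.60 (limma adjusted p = 0.0353) without WT 5 and 0.55 (limma adjusted p = 0.15) without Nix_KO 3, WT 3 and WT 5. The call of Kpna3 was lost without Nix_KO 2, Nix_KO 3, Nix_KO 6 or WT 4 (limma adjusted p up to 0.0714), although all 3 of its tested probe sets passed with 8 arrays. Its dimmer tested probe sets differed by 1.10 and 1.19 (limma adjusted p = 0.035 and 0.030), and Kpna2 had 1 probe set only.

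Kpna4 averaged 11.11 ± 0.22 in Nix_KO and 11.17 ± 0.26 in WT (SD, n = 4 each), a difference of -0.06 (limma adjusted p = 0.84). Kpna6 read 8.63, 8.41, 8.70 and 8.89 in Nix_KO, against 8.82, 8.96, 8.71 and 8.60 in WT. Its arrays overlapped throughout, with a difference of -0.11 (limma adjusted p = 0.61). The sign of both Kpna4 and Kpna6 turned when arrays were centred (0.07 and 0.01). The paralogues were then set against each other within arrays, over 4 pairs. The Kpna2 difference exceeded that of Kpna4 by 1.41, that of Kpna6 by 1.47 and that of Kpna1 by 0.63, each with an exact permutation p = 0.0286, the smallest that 4 against 4 arrays can give (adjusted over the 4 pairs, 0.0381). In each of these pairs every Nix_KO array was above every WT array. Against Kpna3 the excess was 0.48 and did not pass (exact permutation p = 0.0571, adjusted 0.0571). Each pair used the brightest tested probe set of the gene, and the dimmer ones were not set against Kpna2. Without any 1 Nix_KO array the adjusted exact permutation p was 0.0571 to 0.0762 for the pairs with Kpna1, Kpna4 and Kpna6, and the excess over Kpna4 was 1.22 to 1.59 across all single-array removals. Without Nix_KO 3, WT 3 and WT 5 the excess was 0.69 over Kpna1, 1.40 over Kpna4 and 1.35 over Kpna6, where 5 arrays cannot give an exact p under 0.1.

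**Figure D4:**
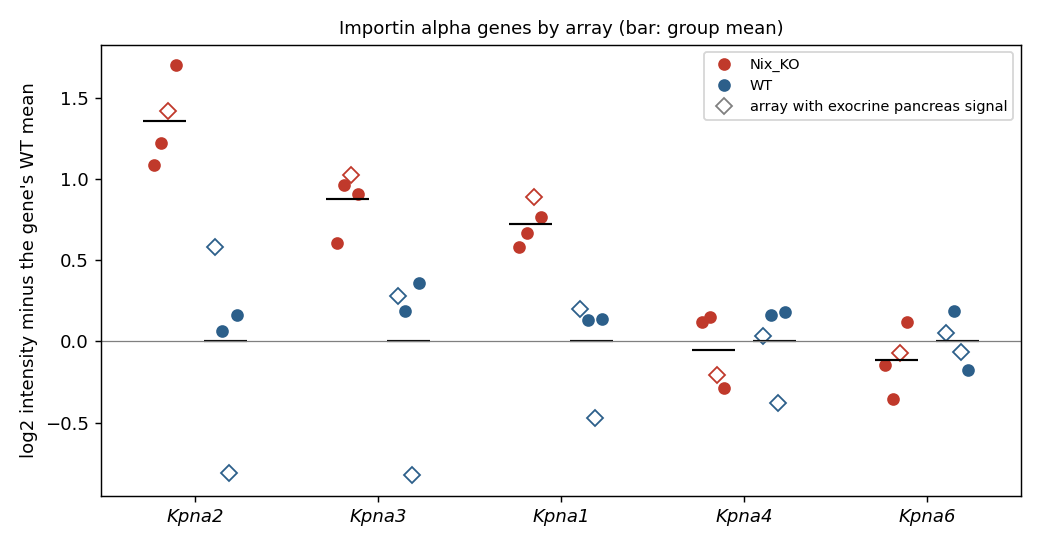
Log2 intensity of the 5 tested importin alpha genes minus that gene's WT mean, by array, with Nix_KO left of WT for each gene, bars for group means and open diamonds for Nix_KO 3, WT 3 and WT 5. Nix_KO and WT points are apart for Kpna2, Kpna3 and Kpna1 and mixed for Kpna4 and Kpna6; WT 5 is the lowest WT point for Kpna2, Kpna3, Kpna1 and Kpna4.

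The importin beta family, whose members bind pore repeats and carry cargo directly or through importin alpha, had genes called in both directions. Of 11 tested, 2 were higher, 1 was lower and 8 did not pass, with a median of 0.07. Of all genes, 13.1% were higher and 21.3% lower. Tnpo2, a transportin that imports RNA-binding proteins, read 8.48, 8.65, 8.59 and 7.36 in Nix_KO, against 6.86, 6.74, 6.96 and 6.59 in WT. Nix_KO 6 was far below the other Nix_KO arrays and still above all WT arrays. The difference was 1.49 ± 0.28 (SE, limma adjusted p = 0.00536), while the second tested probe set of Tnpo2 differed by 0.50 (limma adjusted p = 0.0421). Its close paralogue Tnpo1 differed by -0.37 with overlapping arrays (limma adjusted p = 0.304) and by 0.43 on its second tested probe set (limma adjusted p = 0.203), so that its direction was not settled. Ipo5, an importin of ribosomal proteins and histones, read 9.62, 10.28, 9.81 and 9.84 in Nix_KO, against 9.28, 9.11, 8.62 and 8.92 in WT. The groups were apart, with a difference of 0.91 ± 0.20 (SE, limma adjusted p = 0.00936), and the second probe set of Ipo5 differed by 0.58 without passing (limma adjusted p = 0.0773). Ipo4, which imports histones among other cargo, went the other way. It read 10.08, 10.05, 9.66 and 9.87 in Nix_KO, against 10.49, 10.50, 10.78 and 10.63 in WT. Every Nix_KO array was below every WT array, the difference was -0.69 ± 0.15 (SE, limma adjusted p = 0.0102), and its second probe set differed by -0.49 (limma adjusted p = 0.115).

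Kpnb1, importin beta 1 itself, the partner of all importin alpha proteins, read 10.48, 10.43, 10.67 and 10.93 in Nix_KO, against 10.36, 10.42, 10.15 and 10.39 in WT. The Nix_KO arrays were above the WT arrays by a narrow margin, and the difference of 0.30 did not pass (limma adjusted p = 0.178); none of its 3 tested probe sets passed. Ipo11, an importin of ubiquitin-conjugating enzymes, read 6.97, 7.19, 7.09 and 7.44 in Nix_KO, against 6.92, 6.86, 6.10 and 6.72 in WT. Those arrays did not overlap, and the difference of 0.52 did not pass (limma adjusted p = 0.0835). Ipo8 lay lower in all Nix_KO arrays than in any WT array, by -0.37, without passing (limma adjusted p = 0.0829). Ipo7, Ipo9, Ipo13 and Tnpo3 differed by 0.23, 0.04, -0.12 and 0.07, with overlapping arrays and limma adjusted p of 0.491, 0.904, 0.614 and 0.793.

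Exportins carry proteins and RNA out to the cytoplasm. Of 6 members tested, 2 were higher and 1 was lower. Xpo1, the receptor for leucine-rich export signals, read 11.14, 10.97, 11.35 and 10.96 in Nix_KO, against 10.65, 10.27, 9.88 and 10.24 in WT. The arrays did not overlap, and the difference was 0.84 ± 0.19 (SE, limma adjusted p = 0.0103). The second probe set of Xpo1 differed by 0.23 (limma adjusted p = 0.472). The gap between the probe sets, 0.61, had an exact permutation p of 0.0286, the smallest possible, and 0.204 after adjustment over the 10 genes whose probe sets differed in call. Those genes were picked by their calls on the same arrays. Averaging the probe sets of Xpo1 gave 0.54 and ended its call (limma adjusted p = 0.051). Cse1l, which carries importin alpha back to the cytoplasm, read 9.68, 9.83, 9.72 and 9.73 in Nix_KO, against 9.50, 9.16, 8.90 and 9.15 in WT. Its Nix_KO arrays lay close together and above all WT arrays, with a difference of 0.56 ± 0.16 (SE, limma adjusted p = 0.0256). That call was lost without WT 4, WT 5 or WT 6 (limma adjusted p up to 0.0719).

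Xpo6, which exports actin with profilin, read 8.83, 8.09, 8.47 and 8.82 in Nix_KO, against 8.96, 9.32, 9.40 and 9.36 in WT. All Nix_KO arrays were below all WT arrays, WT 3 by the least. The difference was -0.71 ± 0.20 (SE, limma adjusted p = 0.0268), and it was not called without Nix_KO 3, WT 4, WT 5 or WT 6 (limma adjusted p up to 0.0762). Xpo4, an exportin of a translation factor, read 7.30, 6.97, 7.45 and 6.50 in Nix_KO, against 6.79, 6.93, 6.80 and 6.90 in WT. The WT arrays lay inside the Nix_KO range, and the difference of 0.20 did not pass (limma adjusted p = 0.493). On the second tested probe set of Xpo4 all Nix_KO arrays lay above all WT arrays. Its difference of 0.73 did not pass either (limma adjusted p = 0.098), and averaging the tested probe sets gave 0.46 (limma adjusted p = 0.0562). Xpo5, the exportin of microRNA precursors, differed by -0.17, and Xpot, that of transfer RNA, by 0.19 (limma adjusted p = 0.382 and 0.372). For Xpot the other 2 tested probe sets passed, at 0.45 and 0.44 (limma adjusted p = 0.0301 and 0.0426), so the count by gene does not include a gene that most of its probe sets call higher.

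The Ran system supplies the gradient on which all these carriers depend, and 2 of its 3 members were higher. Rcc1, the exchange factor on chromatin, read 8.92, 9.37, 9.06 and 9.24 in Nix_KO, against 8.60, 8.19, 8.22 and 8.12 in WT. Rangap1, the activating protein on the cytoplasmic side, read 10.65, 10.78, 10.80 and 10.61 in Nix_KO, against 10.06, 9.89, 10.03 and 9.59 in WT. For both genes all Nix_KO arrays were above all WT arrays. The differences were 0.86 ± 0.17 for Rcc1 and 0.82 ± 0.15 for Rangap1 (SE, limma adjusted p = 0.00616 and 0.00545). Without Nix_KO 3, WT 3 and WT 5 they were 1.02 and 0.94 (limma adjusted p = 0.0565 and 0.0575). The second tested probe set of Rangap1 differed by 0.40 and did not pass (limma adjusted p = 0.141).

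Ran itself read 15.03, 15.20, 14.97 and 15.13 in Nix_KO, against 14.87, 14.71, 14.48 and 14.66 in WT. Those arrays did not overlap, but the difference of 0.40 ± 0.14 (SE) missed the threshold (limma adjusted p = 0.0576). Of the 5 tested Ran probe sets, 3 passed, at 0.41, 0.44 and 0.76 (limma adjusted p = 0.0333, 0.0497 and 0.0146), and the fifth differed by 0.43 (limma adjusted p = 0.0502). The probe set with 0.76 is the only one of the 5 that is not of the kind marked as open to cross-hybridisation.

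Of the 44 genes, 30 had more than 1 tested probe set. All tested probe sets were higher for 6 of them, namely Kpna1, Kpna3, Nup155, Nup43, Nup85 and Tnpo2, and none passed for 14. The other 10 genes (Ipo4, Ipo5, Nup133, Nup50, Nup54, Ran, Ranbp2, Rangap1, Xpo1 and Xpot) had probe sets on both sides of the threshold. For 0 genes were probe sets called in opposite directions. The exact permutation tests of these 10 gaps gave adjusted p of 0.204 or more. Each set the brightest probe set against the one whose difference lay furthest from its own. Genes and pairs were thus picked on the same arrays that the tests used. No exact p can be below 0.0286, so after adjustment over 10 gaps none can pass unless several reach that value together. These tests therefore do not settle whether the probe sets differed.

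The pore proteins and the carriers were then set side by side. Of 19 member nucleoporins tested, Ranbp2 included, 8 were higher and 0 lower, with a median log2 difference of 0.47. Of 25 member carriers and Ran system genes, 9 were higher and 2 lower, with a median of 0.23. Among all genes, 13.1% were higher and 21.3% lower. The pore proteins and the carriers were not tested against each other.

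Single arrays contributed unequally. WT 5 held the lowest value of all 8 arrays for 22 of the 44 genes (50%), against 15.4% of all genes. Among the 17 higher genes it was the lowest WT array for 12. Nix_KO 6 held the highest value for 15 of the 44, and the share of all genes highest there was not counted. Among the 17 higher genes Nix_KO 6 was the highest Nix_KO array for 4. Without WT 5, 13 members were higher and 1 was lower, where 9.94% of all genes were higher and 14.4% lower. Without WT 4, 11 members were higher and 1 was lower, where 9.77% of all genes were higher and 11.8% lower. Of the 19 called genes, 12 kept their call when each array was left out in turn.

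**Figure D5:**
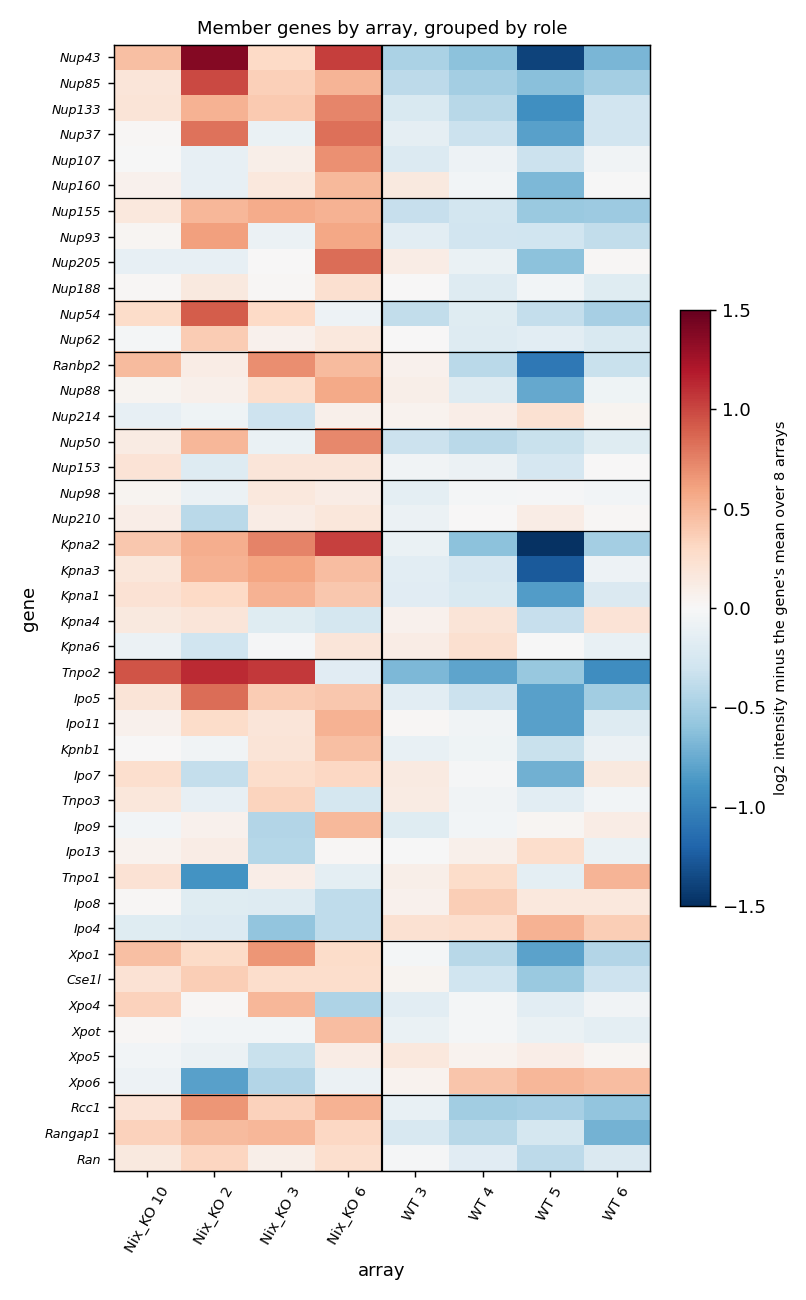
Log2 intensity of the 44 tested genes on each array (columns, the 4 Nix_KO arrays left of the 4 WT arrays) minus the gene's mean over 8 arrays, with genes grouped by role between the horizontal lines. Red is above and blue below the mean. Blue is deepest in WT 5, which held the lowest value for 22 genes, and Ipo4 and Xpo6 show the reverse order of colours.

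Genes of the pore and of transport outside the naming rule were read from a list of 34, of which 25 were tested. Of these, 5 were higher and 1 was lower in Nix_KO, and the median log2 difference was 0.21. Of all genes, 13.1% were higher and 21.3% lower, and the list was not tested against them. Xpo7, a carrier with a described part in the maturation of mouse red cells, read 14.11, 14.01, 14.43 and 13.80 in Nix_KO, against 12.88, 12.47, 12.50 and 11.50 in WT. Its arrays were far apart, with a difference of 1.75 ± 0.28 (SE, limma adjusted p = 0.0036). Senp2, a SUMO protease found at the pore, read 8.69, 9.31, 8.81 and 9.24 in Nix_KO, against 8.14, 8.20, 8.17 and 8.17 in WT. The difference was 0.84 ± 0.17 (SE, limma adjusted p = 0.0074). Eny2, a small subunit of the export complex TREX-2, differed by 0.79 ± 0.17, and Nupl1, the channel partner of Nup54 and Nup62, by 0.78 ± 0.18 (SE, limma adjusted p = 0.0099 and 0.0109). Ndc1, a membrane-spanning nucleoporin, was higher by 0.70 (limma adjusted p = 0.0293), a call lost without Nix_KO 2, Nix_KO 6, WT 4, WT 5 or WT 6 (limma adjusted p up to 0.0788). Mcm3ap, the scaffold of TREX-2, was lower, at -0.44 (limma adjusted p = 0.0304), and was not called under quantile normalisation or centring (limma adjusted p = 0.0515 and 0.113). Its call was also lost without Nix_KO 10, Nix_KO 3 or any 1 WT array (limma adjusted p up to 0.0852, without WT 4). Without Nix_KO 3, WT 3 and WT 5, 1 of the 25, Xpo7, was higher and 0 were lower. On those 5 arrays 2.64% of all genes were higher and 0.916% lower.

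The targeted gene Bnip3l lies on chromosome 14. Within 20 Mb of it lie 3 members, Ipo4, Kpna3 and Xpo4, of which 1 was lower, 1 was higher and 1 did not pass. Xpo7 and Nupl1, both higher, lie there too. Of 203 tested genes in that stretch, 33 were higher and 44 lower, where 13.1% of all genes were higher and 21.3% lower. An effect of the position was not tested.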

How the data were processed

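RNA of 8 mouse spleens, 4 of Nix_KO and 4 of WT animals aged 8 weeks, was read on Affymetrix mouse arrays, 1 animal an array. Per the labels' protocols it was extracted with Trizol, purified on columns and labelled in 1 cycle. The deposited values are 1 intensity per probe set and array, made by the authors with GCRMA per the submitters' processing notes, a method that removes background, brings arrays to a common scale and combines the probes of a set. Its version, and the step that put the intensity on a linear scale, are not given in the sources used here. Differences of dim probe sets depend on the background correction. All 8 columns matched a sample by title, and 0 were left unmatched.

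Intensities were log2-transformed with no offset. Testing covered 22347 probe sets that reached log2 5 on 4 or more arrays, and 64 controls took no part. Genotypes were compared with limma 3.58.1 (two-sided, after eBayes moderation; R 4.3.3), adjusting p by Benjamini-Hochberg across these probe sets. The fit was tested on simulated data. Where a gene had several tested probe sets, the brightest on average stood for it. Pairs of probe sets were compared by exact permutation over arrays (two-sided), where 0.0286 is the smallest p that 4 against 4 can give. Symbols came from the platform annotation, and the Entrez IDs of all 46 members were in the RefSeq gene table of GRCm38.p6, used for names and for neighbours of Bnip3l within 20 Mb. Python 3.11.15 and matplotlib 3.10.9 drew the figures. The number of arrays limits the precision.

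Genes with values on every array were chosen by rule: Ran, Kpnb1, Kpna2, Xpo1, Cse1l, Rcc1, Rangap1, Ranbp2, Nup98, Nup153 and Nup107 in any case; within each role up to 3 that passed with the lowest adjusted p and no overlap, and the one with the largest difference that did not pass; members near Bnip3l; and up to 4 other pore genes. The members and lists were chosen with earlier results of these data known. Alternatives were filters, normalization, a floor, array weights, an intensity trend, how a gene is represented, the title number as a block, and leaving out arrays.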

Additional observations from a re-analysis of the deposited data

Results flagged for a closer look

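In each of the 88 groups of 4 arrays (44 genes, both genotypes) the highest or lowest array was compared with the others by Dixon's gap ratio at its critical value for 4 arrays. Chance passes about 1 group in 20, and 10 passed here. On the log2 intensity scale, Nix_KO 2 was low for Ipo7 (9.30), Nup153 (10.49) and Nup210 (11.01), and Nix_KO 3 was low for Ipo13 (8.06). Nix_KO 6 was low for Tnpo2 (7.36) and high for Nup205 (9.86) and Xpot (11.07). WT 5 was low for Kpna1 (8.31) and Kpna3 (7.21), and WT 3 was low for Nup98 (9.45).

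Of these genes, Tnpo2, Kpna1 and Kpna3 were called higher in Nix_KO, and each was still called without the array that stood apart. The log2 difference of Tnpo2 was then 1.79 (limma adjusted p = 0.0019), that of Kpna1 0.57 (limma adjusted p = 0.0315) and that of Kpna3 0.60 (limma adjusted p = 0.0353). None of the other 7 passed limma's adjusted test with or without that array. Nup205 differed by 0.06 without Nix_KO 6, against 0.29 with it, and Nup153 by 0.29 without Nix_KO 2, against 0.19 with it (limma adjusted p = 0.83 and 0.134 without the array).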

How the results depend on the processing

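The direction of all 19 called genes held under every alternative run. Of the 19, 11 also stayed past the threshold under all alternatives other than the removal of Nix_KO 3, WT 3 and WT 5 and the replicate block. Without those 3 arrays 0 member probe sets and 0 member genes passed in either direction, and 1 higher and 0 lower among the other pore genes; 5 arrays were left. The numbers 3 and 6 occur in both genotypes. With the title number as a replicate block, 0 were called higher and 0 lower among member probe sets, member genes and other pore genes, with 1 residual degree of freedom and 0 genes higher and 1 lower of all 11027. Same-numbered arrays had correlated deviations of 0.252 (number 3) and 0.147 (number 6), too few pairs to show pairing.

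Leaving out each array in turn gave 17 to 30 member probe sets higher (17 without WT 4, 19 without WT 5 or WT 6) and 1 to 3 lower, while over all probe sets 8.45% to 12.4% were higher and 9.38% to 18.9% lower. By gene it gave 11 to 18 members higher (11 without WT 4) and 1 to 2 lower, while over all genes 9.21% to 13.3% were higher and 11.8% to 22.2% lower, and among other pore genes 4 to 8 higher (8 without Nix_KO 3) and 0 to 1 lower. Averaging the probe sets of a gene gave 8 other pore genes higher, and quantile normalization and centring each gave 0 lower. Over the single-array removals the excess of Kpna2 was 0.52 to 0.76 over Kpna1, 0.38 to 0.58 over Kpna3 (called without WT 3), 1.22 to 1.59 over Kpna4 and 1.22 to 1.64 over Kpna6. The gap between probe sets was 0.25 to 0.47 for Ipo5, 0.25 to 0.38 for Nup50, 0.32 to 0.72 for Nup54, 0.32 to 0.61 for Rangap1, 0.48 to 0.68 for Xpo1 and -0.42 to -0.19 for Xpot, each past the threshold only without Nix_KO 6. Those gaps tied there at an adjusted exact permutation p of 0.0476, which needs several gaps at the smallest exact p. Their pairs had been picked by call and gap size with all arrays. For these gaps the cause was not tested.

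Signs turned only for genes that were not called. On centring, Ipo13 became 0.0033, Kpna4 0.0671, Kpna6 0.0095 and Nup210 0.1019. Array weights gave -0.0544 for Ipo9 and 0.055 for Nup210, and the replicate block 0.0842 for Kpna6 and 0.1743 for Nup210. The mean of probe sets gave -0.0217 for Nup62, -0.0124 for Nup98, 0.0328 for Tnpo1 and 0.1065 for Xpo5. Without Nix_KO 3, WT 3 and WT 5, Ipo13 was 0.0719 and Tnpo3 -0.022. Over single-array removals Ipo13 ran from -0.18 to 0.0017, Ipo9 from -0.12 to 0.19, Kpna4 from -0.18 to 0.0216, Nup210 from -0.0792 to 0.11 and Tnpo3 from -0.0371 to 0.16. Signal near background limits Kpna7 and Nup210l, which were not tested.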
